A study of Homo sapiens with 3 samples.

Results

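The miR-30 family was examined as 10 mature miRNAs, named by a fixed list: the 5p products miR-30a-5p, miR-30b-5p, miR-30c-5p, miR-30d-5p and miR-30e-5p, and the 3p products miR-30a-3p, miR-30c-1-3p, miR-30c-2-3p, miR-30d-3p and miR-30e-3p. The members were taken by name and not by a cutoff on values, but the list was made with earlier results of these data known. All 10 were found among the 2588 mature miRNAs of the deposited tables. Small RNA had been sequenced from untreated parental cells of C643 (thyroid cancer), ES-2 (ovarian cancer) and Huh-7 (liver cancer), grown in DMEM with fetal bovine serum and harvested 48 h after seeding. Each line was 1 library, so line and library cannot be told apart, no difference below has a replicate check, and no p-value is given for a difference between lines. Library depth was 8183100 miRNA reads for C643, 1663181 for ES-2 and 2173587 for Huh-7. The hepatocyte miRNA miR-122-5p held 13.3% of reads in Huh-7, 0.00572% in C643 and 0.000361% in ES-2, so that it was high only in the line labelled as liver. No marker was looked up for thyroid or ovary.

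A miRNA is cut from a hairpin precursor by Drosha and Dicer, and 1 of the 2 strands of the resulting duplex usually stays in Argonaute and guides it to target mRNAs. Targets are found mainly by the seed, bases 2 to 8 of the mature strand. The miR-30 family is made from 6 hairpins in 3 genomic clusters, 30a with 30c-2, 30b with 30d and 30c-1 with 30e, and is widely expressed, with described roles in keeping epithelial and other differentiated cell states. Its 5p strands are the ones usually regarded as guides.

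Mature sequences were available from RefSeq (GRCh38.p14) for 7 of the 10 members. They are shown for their seeds, and because single bases decide which members can be told apart by sequencing. Capitals mark the seed. All are written 5′ to 3′.
miR-30a-5p: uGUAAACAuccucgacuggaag
miR-30e-5p: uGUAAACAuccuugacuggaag
miR-30c-5p: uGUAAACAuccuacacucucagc
miR-30a-3p: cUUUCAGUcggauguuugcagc
miR-30e-3p: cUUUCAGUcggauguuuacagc
miR-30c-1-3p: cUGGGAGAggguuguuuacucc
miR-30c-2-3p: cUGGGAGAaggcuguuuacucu
The 3 5p strands shared the seed GUAAACA. The 3p strands fell into 2 seed groups, UUUCAGU for miR-30a-3p and miR-30e-3p and UGGGAGA for the miR-30c 3p strands. Of the 2281 miRNAs in the tables with a RefSeq sequence, the only other one with any of these seeds was miR-6788-5p, which shares UGGGAGA and had 0 reads in each library, a share of at most 3.67e-05% for C643, 0.00018% for ES-2 and 0.000138% for Huh-7 (3 reads). Counted from 1 at the 5′ end, miR-30a-5p and miR-30e-5p differ only by C13U, miR-30a-3p and miR-30e-3p only by G18A, and miR-30c-1-3p and miR-30c-2-3p by G9A, U12C and C22U. No sequence was available for miR-30b-5p, miR-30d-5p and miR-30d-3p, so how many bases set them apart from miR-30a was not examined. Members that differ by 1 base could exchange reads if mismatches were allowed in the alignment, which was not tested, so the lowest values of miR-30a given below are uncertain in that direction.

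The hairpins of the clusters on chromosomes 1 and 6 show where both strands lie. Capitals mark the mature 5p and 3p strands within each precursor (RefSeq, positions on GRCh38).
MIR30A, chr6:71403551-71403621, minus strand: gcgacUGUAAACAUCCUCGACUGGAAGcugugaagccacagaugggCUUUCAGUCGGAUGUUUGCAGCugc
MIR30C2, chr6:71376960-71377031, minus strand: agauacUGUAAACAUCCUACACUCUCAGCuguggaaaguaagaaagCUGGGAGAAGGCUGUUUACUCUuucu
MIR30E, chr1:40754355-40754446, plus strand: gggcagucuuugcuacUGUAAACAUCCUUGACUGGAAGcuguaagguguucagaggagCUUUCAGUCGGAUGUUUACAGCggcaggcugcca
MIR30C1, chr1:40757284-40757372, plus strand: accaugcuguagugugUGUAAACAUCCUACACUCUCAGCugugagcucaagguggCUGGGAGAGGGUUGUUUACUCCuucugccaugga
MIR30A and MIR30C2 lie 26.5 kb apart, both in introns of the long non-coding RNA genes LINC00472 and AL136164.2 on the same strand, and MIR30E and MIR30C1 lie 2.84 kb apart in introns of NFYC, which encodes a subunit of the transcription factor NF-Y (GENCODE 29). The 23 bases of miR-30c-5p are the same in MIR30C1 and MIR30C2, so its reads cannot be assigned to either hairpin, whereas the 3p strands of these hairpins can be told apart.

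Summed over all 10 members, the family held similar shares of the miRNA reads in C643 and ES-2 and a lower share in Huh-7. The share was 7.14% in C643 (Wilson 95% interval 7.12 to 7.16) and 7.33% in ES-2 (7.29 to 7.37), against 3.51% in Huh-7 (3.49 to 3.54). A share is the reads of a miRNA, summed over its loci, as a percentage of all miRNA reads of that library, and intervals here and below cover counting error only. ES-2 exceeded Huh-7 by 2.09-fold (2.07 to 2.11) and C643 exceeded Huh-7 by 2.03-fold (2.02 to 2.05), while C643 stood at 0.974 of ES-2 (0.968 to 0.98). The size of this difference rested on the scale: on the values as deposited ES-2 exceeded Huh-7 by 3.94-fold and C643 exceeded Huh-7 by 3.19-fold.

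The lower share in Huh-7 lay mainly in 1 cluster. miR-30c-5p, made in part by this cluster, was also lower in Huh-7, at 0.365% against 0.683% in C643 and 0.623% in ES-2. Reads that only the 30a and 30c-2 hairpins make (hsa-miR-30a-5p, hsa-miR-30a-3p and hsa-miR-30c-2-3p) held 4.40% in C643 and 5.07% in ES-2, with 0.0944% in Huh-7, or 61.6%, 69.2% and 2.69% of the family. Without these 3 members the other 7 held 2.74% in C643 and 2.25% in ES-2, against 3.42% in Huh-7, so that by share the rest of the family was highest in Huh-7. That order depended on the scale, since on the deposited values these 7 members were 1.24-fold higher in ES-2 than Huh-7.

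**Figure D1:**
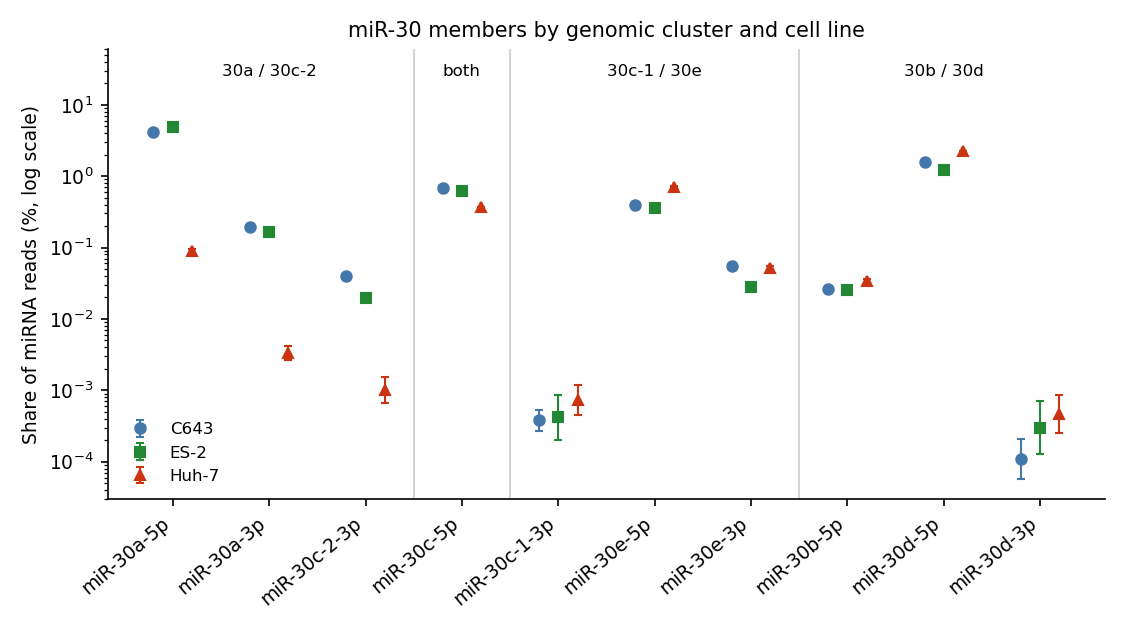
Share of miRNA reads (%, log scale) of the 10 miR-30 members in C643 (circles), ES-2 (squares) and Huh-7 (triangles), grouped by the cluster that makes them, with Wilson 95% intervals. In Huh-7, miR-30a-5p lies at 0.09%, miR-30a-3p at 0.00331% and miR-30c-2-3p at 0.00101%, far below the other lines, whereas the 5p members of the other clusters lie within 2.01-fold of each other across the lines.

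miR-30a-5p, the most abundant family member in C643 and ES-2, was scarce in Huh-7. It had 340848 reads or 4.17% in C643, where it ranked 4 among all miRNAs, and 81306 reads or 4.89% in ES-2, where it ranked 6, with 1957 reads or 0.09% in Huh-7, where it ranked 72. It was 54.3-fold higher in ES-2 than Huh-7 (95% interval 51.9 to 56.8) and 46.3-fold higher in C643 than in Huh-7 (44.3 to 48.4), with C643 at 0.852 of ES-2. Relative to its near-identical relative miR-30e-5p, it had 10.7 times the reads in C643 and 13.9 times in ES-2, but 0.127 times in Huh-7.

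The opposite strand of the same hairpin followed. miR-30a-3p gave 15957 reads (0.195%) for C643 and 2739 (0.165%) in ES-2, against 72 (0.00331%) in Huh-7. It was thus 49.7-fold higher in ES-2 than Huh-7 (39.3 to 62.8) and 58.9-fold higher in C643 than in Huh-7 (46.7 to 74.2). These intervals overlap those of miR-30a-5p in the comparison of ES-2 with Huh-7 and, narrowly, in that of C643 with Huh-7.

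The second hairpin of the cluster went the same way. miR-30c-2-3p gave 3292 reads (0.0402%) for C643 and 325 (0.0195%) in ES-2, with 22 (0.00101%) in Huh-7, which made it 19.3-fold higher in ES-2 than Huh-7 (12.5 to 29.7) and 39.7-fold higher in C643 than in Huh-7 (26.1 to 60.4). miR-30a-3p exceeded it within each library, by 4.85-fold in C643 (4.67 to 5.03) and 8.43-fold in ES-2 (7.51 to 9.45), against 3.27-fold in Huh-7 (2.03 to 5.28). The products of the 2 hairpins were therefore lower together in Huh-7, though not in a fixed proportion.

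miR-30c-5p, which both 30c hairpins make, gave 55903 reads (0.683%) for C643 and 10368 (0.623%) in ES-2, with 7942 (0.365%) in Huh-7. It was 1.71-fold higher in ES-2 than Huh-7 (1.66 to 1.76) and 1.87-fold higher in C643 than in Huh-7 (1.83 to 1.91), a far smaller gap than that of the 3p strand of MIR30C2. In the tables its reads were spread nearly evenly over the chromosome 1 and chromosome 6 loci, with 49.8% at chromosome 1 in C643 and 49.3% in ES-2, against 49% in Huh-7. The even spread was kept in Huh-7, where miR-30c-2-3p, the strand that only the chromosome 6 hairpin makes, was low. The locus of miR-30c-5p in these tables thus did not track the 3p strands, and only the sum was used.

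miR-30c-1-3p, the strand that only the chromosome 1 hairpin makes, was rare, at 31 reads for C643, 7 for ES-2 and 16 for Huh-7. Its shares of 0.000379%, 0.000421% and 0.000736% had overlapping Wilson intervals, and of the 3 ratios between lines 1 had an interval that excludes 1, C643 at 0.515 of Huh-7 (0.281 to 0.941). miR-30c-2-3p exceeded it 106-fold in C643 (74.6 to 151) and 46.4-fold in ES-2 (22 to 98.2), but in Huh-7 their ratio was 1.38 with an interval that includes 1 (0.722 to 2.62), so that at this depth the 3p strands of the 2 hairpins could not be told apart in amount there. miR-30c-5p had 17 times the reads of miR-30c-2-3p in C643 and 31.9 times in ES-2, against 361 times in Huh-7.

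The neighbor of MIR30C1, MIR30E, was expressed at more similar levels. miR-30e-5p gave 31983 reads (0.391%) for C643 and 5870 (0.353%) in ES-2, with 15438 (0.71%) in Huh-7, and its share was 2.01-fold higher in Huh-7 than in ES-2 (1.95 to 2.07) and 1.82-fold higher than in C643 (1.78 to 1.85). miR-30e-3p gave 4491 reads (0.0549%) for C643 and 461 (0.0277%) in ES-2, against 1129 (0.0519%) in Huh-7. By share, C643 and Huh-7 had overlapping intervals for it, and ES-2 was lowest. On the values as deposited C643 exceeded Huh-7 by 1.66-fold, and ES-2 was near Huh-7, at 1.01-fold. Within the cluster, miR-30e-3p exceeded miR-30c-1-3p by 145-fold in C643 (102 to 206) and 65.9-fold in ES-2 (31.2 to 139), with 70.6-fold in Huh-7 (43.1 to 116).

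Of the cluster on chromosome 8, with MIR30B and MIR30D 4.27 kb apart, miR-30d-5p was the abundant product. It gave 129429 reads (1.58%, rank 12) for C643 and 20333 (1.22%, rank 14) in ES-2, against 49005 (2.25%, rank 6) in Huh-7, and its share was 1.84-fold higher in Huh-7 than in ES-2 (1.81 to 1.87) and 1.43-fold higher than in C643 (1.41 to 1.44). miR-30b-5p gave 2181 reads (0.0267%) for C643 and 424 (0.0255%) in ES-2, with 729 (0.0335%) in Huh-7, and the Wilson intervals of C643 and ES-2 overlapped. miR-30d-5p exceeded miR-30b-5p by 59.3-fold in C643 (56.9 to 61.9) and 48-fold in ES-2 (43.6 to 52.8), against 67.2-fold in Huh-7 (62.5 to 72.3). Of the 3 same-arm ratios within a cluster, this one varied least between the lines by its point values. The ratio of miR-30e-3p to miR-30c-1-3p rests on 31, 7 and 16 reads of the latter, and its intervals overlap between the lines. Its spread thus cannot be ranked against this one. miR-30d-3p was near the limit of detection, with 9, 5 and 10 reads in C643, ES-2 and Huh-7, and its share was 4.18-fold higher in Huh-7 than in C643 with a wide interval (1.70 to 10.3). miR-30b-3p, which is not on the list, gave 143 reads (0.00175%) for C643 and 6 (0.000361%) in ES-2, with 24 (0.0011%) in Huh-7.

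**Figure D2:**
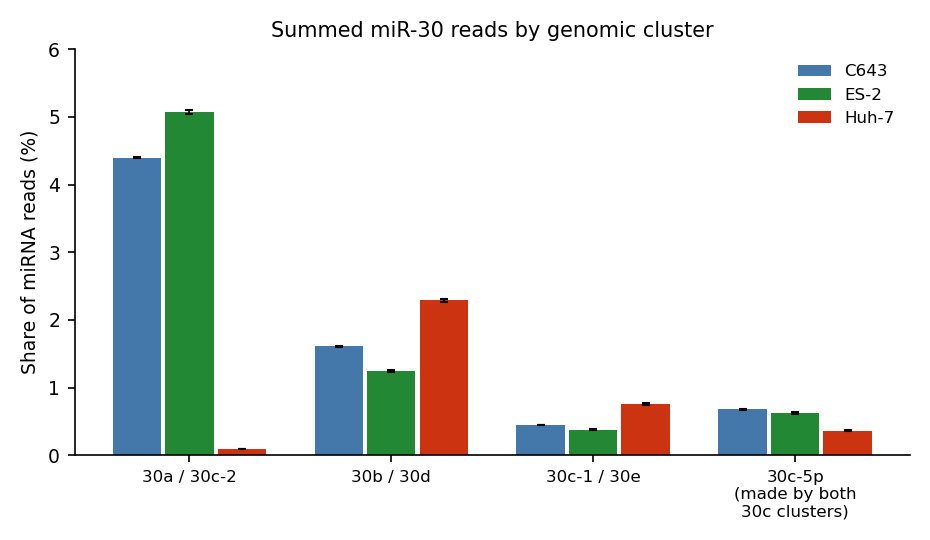
Summed share of miRNA reads (%) of the members that 1 cluster alone makes (30a / 30c-2, 30b / 30d and 30c-1 / 30e) and of miR-30c-5p, in C643, ES-2 and Huh-7, with Wilson 95% intervals as error bars. The 30a / 30c-2 cluster stands at 4.40%, 5.07% and 0.0944%, the 30b / 30d cluster at 1.61%, 1.25% and 2.29%, and the 30c-1 / 30e cluster at 0.446%, 0.381% and 0.763%.

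The higher shares of miR-30b-5p, miR-30d-5p and miR-30e-5p in Huh-7 than in ES-2 were close to or below the offset between these libraries. Over 274 miRNAs with 10 or more reads in both, the median log2 ratio of shares, ES-2 over Huh-7, was -0.99, and it was -0.78 for C643 over Huh-7 (365 miRNAs) and 0.07 for C643 over ES-2 (298 miRNAs). With this median set to 0, ES-2 and Huh-7 differed by a log2 ratio of 0.10 for miR-30d-5p, -0.02 for miR-30e-5p, 0.08 for miR-30e-3p and 0.59 for miR-30b-5p. On the deposited scale these log2 ratios were 0.03, -0.09, 0.01 and 0.52. The direction of miR-30b-5p, miR-30d-5p and miR-30e-3p between ES-2 and Huh-7 thus flipped with the scale, and that of miR-30e-5p was near 0 on both other scales. Between C643 and Huh-7 the direction of miR-30b-5p and miR-30d-5p flipped likewise, with C643 higher by 1.25-fold and 1.10-fold on the deposited scale. The gap of the 30a and 30c-2 cluster widened instead: for miR-30a-5p the log2 ratio was 5.76 by share, 6.68 as deposited and 6.75 with the median set to 0, and for miR-30a-3p it was 5.64, 6.55 and 6.62. miR-30c-5p was higher in ES-2 on each scale, by log2 ratios of 0.77, 1.69 and 1.76.

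The make-up of the 5p strands differed accordingly between the lines. In C643 and ES-2 miR-30a-5p made up 60.8% and 68.7% of the 5p reads and miR-30d-5p 23.1% and 17.2%. In Huh-7 miR-30d-5p made up 65.3%, miR-30e-5p 20.6%, miR-30c-5p 10.6%, miR-30a-5p 2.61% and miR-30b-5p 0.971%. miR-30c-5p kept a similar part in all lines, with 9.98% in C643 and 8.76% in ES-2, and miR-30e-5p held 5.71% and 4.96% there. The order of the 5p members was 30a, 30d, 30c, 30e and 30b in both C643 and ES-2 and 30d, 30e, 30c, 30a and 30b in Huh-7, and neighbors in each order differed beyond their counting intervals. These percentages lie within the family and do not depend on any factor between libraries.

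**Figure D3:**
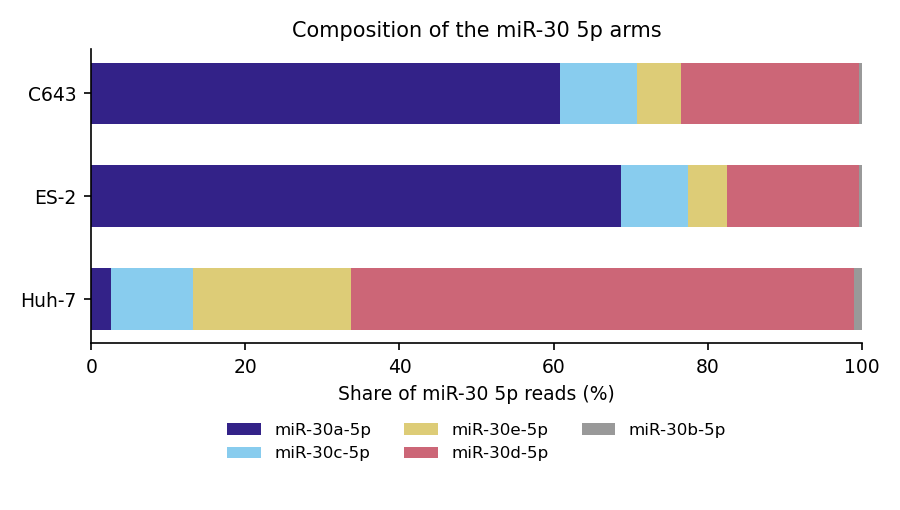
Each bar divides the reads of the 5 miR-30 5p members of a cell line into their percentages. miR-30a-5p takes 60.8% in C643 and 68.7% in ES-2 but 2.61% in Huh-7, where miR-30d-5p takes 65.3%.

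The 3p reads were redistributed as well. miR-30a-3p supplied 67.1% of the 3p reads of the family in C643 and 77.4% in ES-2, but 5.76% in Huh-7, where miR-30e-3p supplied 90.4% against 18.9% in C643 and 13% in ES-2. The 3p members together held 0.291% of miRNA reads in C643 and 0.213% in ES-2, against 0.0575% in Huh-7. Members that share the seed UUUCAGU were therefore supplied mainly by MIR30A in C643 and ES-2 and mainly by MIR30E in Huh-7.

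The members were set against all miRNAs at a share of at least 0.001% in 1 of the 2 lines compared, with a difference of at least 4-fold counted as large. miR-30c-1-3p and miR-30d-3p were below this limit in each line, which left 8 members. Between ES-2 and Huh-7, 3 of the 8 lay 4-fold or more above in ES-2, as did 14.9% of 437 miRNAs, and 0 of the 8 were at least 4-fold lower, against 42.6% of all. That background moved with the scale, from 186 miRNAs lower in ES-2 by share to 125 as deposited and 117 with the median ratio at 1, while the members' count of 0 did not. Between C643 and Huh-7, 3 of 8 were at least 4-fold higher in C643, against 18.3% of 442, and 0 were lower, against 36.9%. The 3 were miR-30a-5p, miR-30a-3p and miR-30c-2-3p in both comparisons, which share the Huh-7 library. They come from 2 hairpins of 1 cluster, so they do not count as 3 separate members beside the background. Between C643 and ES-2, 0 of 8 were at least 4-fold higher in C643, against 20.7% of 348 miRNAs, and 0 were lower, against 9.77%. The median log2 ratio of the 8 members was 0.19 for ES-2 over Huh-7, beside -1.71 over all miRNAs compared, 0.49 beside -1.11 for C643 over Huh-7, and 0.20 beside 0.41 for C643 over ES-2. These backgrounds, and the percentages above, include miRNAs with 3 or fewer reads in the other line. The 8 members had 22 or more reads in each library. Over miRNAs with 10 or more reads in both lines, the medians were -0.99, -0.78 and 0.07, closer to those of the members in each comparison.

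**Figure D4:**
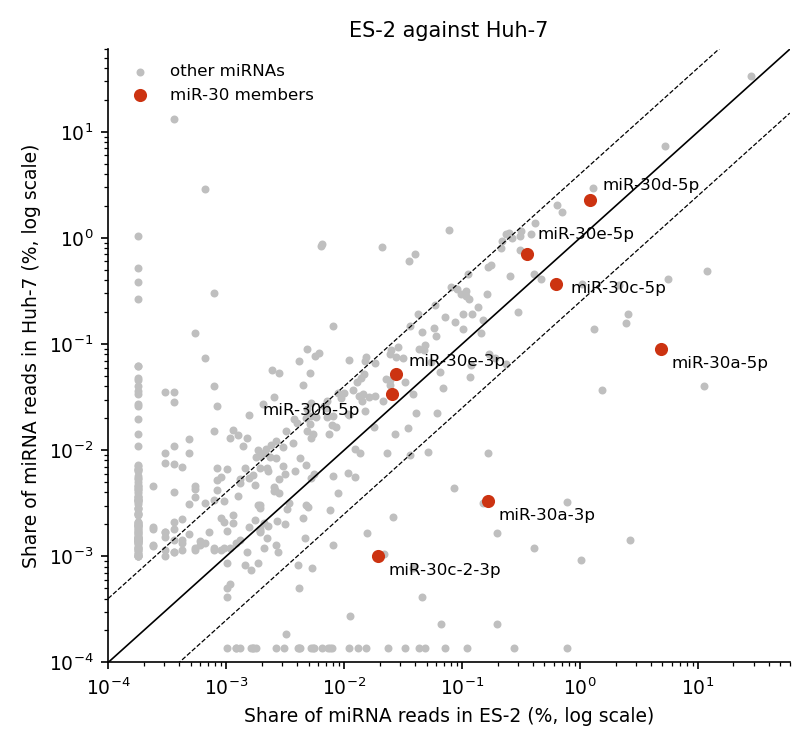
Share of miRNA reads in ES-2 (x axis, %, log scale) and Huh-7 (y axis, %, log scale) of 437 miRNAs, with the 8 miR-30 members at 0.001% or more in red. The solid line marks equal shares and the dashed lines 4-fold differences, and miRNAs at or below 3 reads are drawn at 3 reads. miR-30a-5p, miR-30a-3p and miR-30c-2-3p lie below the lower dashed line, and the other 5 members lie between the dashed lines.

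Between C643 and ES-2 the 5p members differed little. The ratios of shares, C643 over ES-2, were 0.852 for miR-30a-5p, 1.05 for miR-30b-5p (0.942 to 1.16), 1.10 for miR-30c-5p, 1.11 for miR-30e-5p and 1.29 for miR-30d-5p. Of the 3p strands, miR-30a-3p stood at 1.18, within the range of the 5p strands, while miR-30e-3p at 1.98 (1.80 to 2.18) and miR-30c-2-3p at 2.06 (1.84 to 2.31) lay above it. On the deposited scale the ratios of miR-30a-3p, miR-30b-5p, miR-30c-5p and miR-30e-5p fell to between 0.869 and 0.984, so their direction is not settled, whereas miR-30e-3p and miR-30c-2-3p remained higher in C643, at 1.65 and 1.71. The C643 column comes from a separate table that may have been normalized separately, so deposited values were set across the tables only as a description.

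The ratio of 5p to 3p reads was examined for each precursor because both strands come from 1 hairpin and 1 library and share its scaling. The 5p strand was the more abundant for each of miR-30a, miR-30b, miR-30c, miR-30d and miR-30e in each line. Over the whole family there were 23.6 5p reads per 3p read in C643 (exact 95% interval 23.3 to 23.9) and 33.4 in ES-2 (32.3 to 34.6), with 60.1 in Huh-7 (56.8 to 63.6). This sum pools 6 hairpins, so it also moves with their proportions and is not the ratio of 1 precursor. miR-30d, with 10 3p reads in Huh-7, made up 65.3% of the 5p reads there, against 23.1% in C643 and 17.2% in ES-2. The sum was not computed without miR-30d, so its higher value in Huh-7 is not a result about single precursors. Between ES-2 and Huh-7 the intervals of miR-30a, miR-30b, miR-30d and miR-30e, each taken alone, overlapped. Between C643 and Huh-7 those of miR-30a and miR-30d overlapped, while miR-30b and miR-30e had lower ratios in C643. Over all precursors with 50 or more reads over both arms together, the 5p strand was the more abundant in 50% of 210 in C643 and 57.6% of 132 in ES-2, against 53.6% of 181 in Huh-7.

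miR-30a, with far fewer reads in Huh-7, had ratios of 21.4 in C643 (21 to 21.7) and 29.7 in ES-2 (28.6 to 30.8), with 27.2 in Huh-7 (21.5 to 34.9). The ratio was 1.10 times as high in ES-2 as in Huh-7, with an interval that includes 1 (0.867 to 1.39), and in C643 it was 0.72 of that in ES-2 (0.691 to 0.75). miR-30e had the lowest ratio of the family, 7.12 in C643 (6.90 to 7.35) and 12.7 in ES-2 (11.6 to 14), against 13.7 in Huh-7 (12.9 to 14.5). C643 thus had the larger 3p part of miR-30e, 1.92-fold relative to Huh-7 and 1.79-fold relative to ES-2. Over all precursors compared, the median shift in either direction was larger, at 2.49-fold between C643 and Huh-7 and 2.45-fold between C643 and ES-2. miR-30d stood at the other end, with 14381 5p reads per 3p read for C643, 4067 for ES-2 and 4901 for Huh-7, resting on 5 to 10 3p reads per library. Only 17, 8 and 16 precursors reached a ratio of 1000 in C643, ES-2 and Huh-7.

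miR-30c, as its 5p reads over the sum of miR-30c-1-3p and miR-30c-2-3p, had a ratio of 16.8 in C643 (16.2 to 17.4) and 31.2 in ES-2 (28 to 34.9), against 209 in Huh-7 (152 to 296). The ratio was 6.62-fold higher in Huh-7 than in ES-2 (4.73 to 9.25) and 12.3-fold higher than in C643 (8.92 to 16.9). Since 2 hairpins feed this ratio and miR-30c-2-3p made up nearly all of the 3p reads in C643 and ES-2, it cannot be read as the ratio of 1 precursor. miR-30b, with the unlisted miR-30b-3p, had ratios of 15.3 in C643 (12.9 to 18.2) and 70.7 in ES-2 (32.2 to 194), with 30.4 in Huh-7 (20.3 to 47.7).

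**Figure D5:**
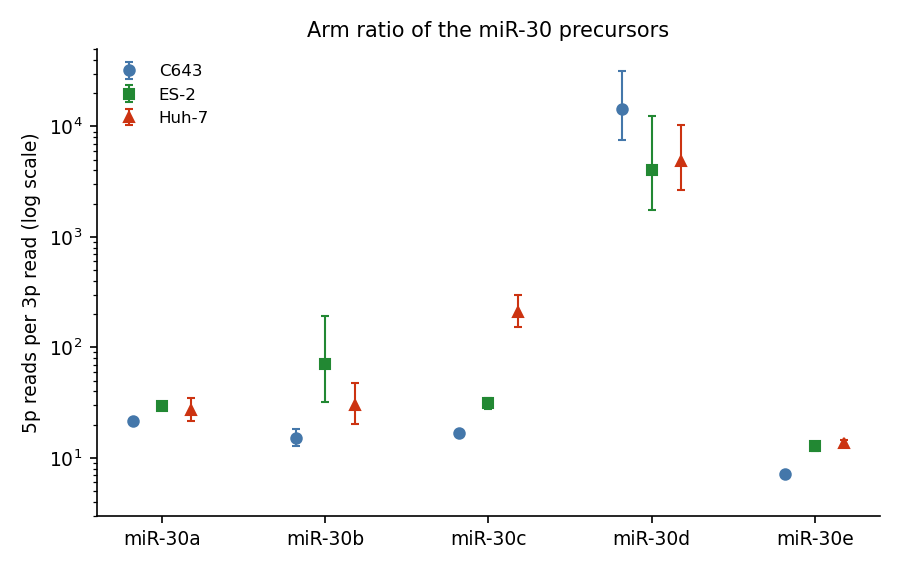
5p reads per 3p read (log scale) of each miR-30 precursor in C643, ES-2 and Huh-7, with exact 95% intervals. miR-30a stays between 21.4 and 29.7 and miR-30e between 7.12 and 13.7, miR-30c rises from 16.8 in C643 to 209 in Huh-7, and miR-30d lies at 4067 or above in each line.

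A ratio that differed at least 2-fold between lines was counted as shifted, with 0.5 reads added to each arm. The summed miR-30c ratio, made by 2 hairpins, is left out of these counts, which leaves 4 miR-30 ratios. Between ES-2 and Huh-7, 1 of the 4 passed this limit (miR-30b), against 43.0% of 114 precursors, but its interval includes 1 (0.916 to 5.25), so that a shift was not detectable at this depth. Between C643 and Huh-7, 1 of 4 passed (miR-30d), against 60.9% of 151, and between C643 and ES-2, 2 of 4 (miR-30b and miR-30d), against 60.3% of 126. The values of miR-30d rest on 5 to 10 3p reads per library. The ratios of miR-30a and miR-30e differed by less than 2-fold in each pair of lines.

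Profiles over the 3 lines were compared with the 128 other miRNAs that had 100 or more reads in each library, by the distance between log2 shares after each miRNA's own mean had been subtracted. These distances describe 3 libraries and carry no p-value. The miRNAs most like miR-30a-5p were let-7g-5p (distance 0.41), let-7a-5p (0.82) and miR-221-5p (1.37), which were also low in Huh-7, at 0.0371%, 0.488% and 0.00948%. miR-30a-3p and miR-30c-2-3p were under the read limit in Huh-7 and could not be compared. Of the other members past the limit, miR-30c-5p was the closest, at 3.94. miR-30d-5p and miR-30e-5p, made by different clusters, lay 0.25 apart, and miR-30b-5p lay 0.35 from miR-30d-5p. miRNAs outside the family lay nearer to each of them, so these distances do not set the family apart. The distances use shares, without removing the offset between the libraries. The 3 nearest to miR-30d-5p were miR-32-3p (0.12), miR-106b-3p (0.12) and miR-339-3p (0.15), those to miR-30e-5p were miR-140-3p (0.10), miR-339-3p (0.11) and miR-374a-3p (0.13), those to miR-30c-5p were miR-671-3p (0.05), miR-152-3p (0.29) and miR-4521 (0.29), and those to miR-30b-5p were miR-769-5p (0.05), miR-21-5p (0.11) and miR-30d-5p.

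Other families made from several loci also differed between the lines. The 5p strands of let-7 with miR-98-5p were 14.5-fold higher in ES-2 than Huh-7 by share (14.3 to 14.6), and miR-29a-3p, miR-29b-3p and miR-29c-3p together were 13.3-fold higher (12.9 to 13.8). The sum of miR-26a-5p and miR-26b-5p was 2.58-fold higher in Huh-7 (2.55 to 2.62). The miR-30 sum, 2.09-fold higher in ES-2, lay between these families, and its 30a and 30c-2 cluster stood at 53.8-fold (51.5 to 56.2) and its remaining members at 0.659 (0.651 to 0.668). These sizes depended on the scale. As deposited, ES-2 exceeded Huh-7 by 27.3-fold for let-7, 25.2-fold for miR-29 and 101-fold for the 30a and 30c-2 cluster. The miR-26 sum was then 1.37-fold higher in Huh-7, and the remaining miR-30 members were 1.24-fold higher in ES-2. A split within a family was not particular to miR-30. By share, the log2 ratio of ES-2 over Huh-7 was 10.9 for let-7i-5p (31 reads in Huh-7) but 0.21 for let-7e-5p. It was 5.61 for miR-29b-3p (17 reads in Huh-7) but 1.04 for miR-29c-3p (28 reads). miR-26a-5p and miR-26b-5p lay closer together, at -1.20 and -2.10.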

How the data were processed

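Small RNA libraries of C643, ES-2 and Huh-7 (TRIZOL RNA, NEXTflex small RNA kit v3, Illumina HiSeq) were deposited as 2 tables, C643 in 1 and ES-2 with Huh-7 in the other. As deposited, each value is a signal: the reads of a miRNA locus times 1 factor per library. The tables carry the name CPM, although their columns sum to 959302, 1154552 and 612015. The submitters' processing notes name cutadapt 1.14, Bowtie2 2.3.3, SAMtools 1.5, featureCounts 1.5.3, edgeR 3.18.1 and hg38. The treatment of reads that match several loci and of random adapter bases is not given in the sources used here, and PCR copies would make the intervals too narrow.

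Dividing by the smallest step gave whole reads (within 0.01) for 100% of nonzero values. Loci of 1 mature miRNA were summed. Members, lists and tests were chosen with earlier results of these data known. Intervals are Wilson for shares, exact Clopper-Pearson for arm ratios and log-normal from read counts for folds (scipy 1.17.1). Reads under 3 were set to 3 in folds. With 1 library per line no test of lines was possible. An exact binomial test of reads (Benjamini-Hochberg adjusted p under 0.05), run as an alternative, compares libraries only. Scripts were tested on simulated data. Named were the members, miR-30b-3p, miRNAs sharing a seed, the 3 nearest profiles of each 5p member, miR-21-5p, miR-122-5p and the listed let-7, miR-29 and miR-26 families as comparison (miR-6788-5p, under the share limit of 0.001%, was named after its values were seen). Alternatives were other scales, filters, folds, read limits and 1 locus per miRNA. Sequences are from RefSeq (GRCh38.p14), positions from GENCODE 29 on GRCh38.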

Additional observations from a re-analysis of the deposited data

How the results depend on the processing

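With 1 library per line there was no replicate to leave out and nothing to test between lines. No paired analysis was possible because no line had a second library to pair. Differences between lines cannot be told apart from differences between libraries, and the deepest library, C643, holds several times the reads of the others, so that members under 50 reads (miR-30c-1-3p and miR-30d-3p in each line, miR-30c-2-3p in Huh-7) are the least precise.

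The shares below are given for C643, ES-2 and Huh-7 in that order. The family held 6.85, 8.46 and 2.15% of 1000000, 10.0, 10.2 and 5.26% of reads without miR-21-5p, 8.19, 8.23 and 3.67% with 1 locus per miRNA, and 6.85, 7.11 and 3.45% by the 5p arms only. ES-2 over Huh-7 was 3.94 as deposited, 4.14 with the median ratio at 1, 2.24 with 1 locus per miRNA and 1.94 without miR-21-5p. C643 over Huh-7 was 3.19, 3.50, 2.23 and 1.90 under these settings. C643 over ES-2 was 0.81, 0.931 and 0.995 under the first 3. The size of the gap to Huh-7 thus depended on the scale, and its direction did not under these settings.

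The number of miRNAs at least 4-fold apart between ES-2 and Huh-7 was 251, and it was 115 with a share limit of 0.01%, 122 with 10 added to deposited values and 405 by an exact binomial test of reads. The part that was higher in ES-2 was 25.9%, 38.7% as deposited and 41.5% with the median ratio at 1 and 50.8% with 10 added. Between C643 and Huh-7 the number was 244, and it was 451 with no filter, 121 with the 0.01% limit, 122 with 10 added and 404 by the binomial test, with 33.2% higher in C643, 43.6% with the median ratio at 1 and 54.9% with 10 added. Between C643 and ES-2 it was 106, and it was 187 with no filter, 38 with the 0.01% limit, 206 at 2-fold, 54 at 8-fold, 46 with 10 added and 307 by the binomial test, with 67.9% higher in C643, 46.0% with no filter and 47.8% with 10 added. Filters and limits change how many miRNAs are compared or counted, and the binomial test counts differences between 2 libraries of any size. At 4-fold, miR-30a-5p, miR-30a-3p and miR-30c-2-3p were the members counted as higher than in Huh-7 under each scale, filter and added value tried. With no filter 1 member, miR-30d-3p at 9 and 10 reads, was at least 4-fold lower in C643 than in Huh-7. The binomial test called 8, 7 and 7 of the 8 members in the 3 pairs, beside 92.7%, 91.4% and 88.2% of all miRNAs compared, so it does not set the members apart.

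The family arm ratio without miR-30c was 24.7 in C643 and 55.4 in Huh-7, and with 1 locus per miRNA it was 22.4 in C643 and 32 in ES-2. Neither setting left out miR-30d, so they do not show how far the gap between the lines rests on it. Shifted precursors between ES-2 and Huh-7 numbered 49, and 80 with a limit of 10 reads, 28 with 200 reads and 25 at 4-fold. Between C643 and Huh-7 they numbered 92, and 61 with 200 reads and 49 at 4-fold, and between C643 and ES-2 76, and 48 and 38.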
